A study of Mus musculus with 24 samples.

Results

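The transcripts described here encode enzymes that remove superoxide and peroxides: the superoxide dismutases Sod1, Sod2 and Sod3, catalase (Cat), the glutathione peroxidases Gpx1, Gpx3 and Gpx4, and the peroxiredoxins Prdx3, Prdx5 and Prdx6. These 10 genes were chosen by name and not by a cutoff on their values, though earlier results of these data were known. They were found on the array by the gene symbol of the platform annotation. A probe set carrying the symbol was found for 8 of the 10, with 18 probe sets in all, out of 18193 genes in the whole table. Prdx5 and Prdx6 had no probe set under their symbol in that annotation, alone or joined with another gene's, and were not analysed here; probe sets it does not list are unnamed and could cover them. Where a gene had several, the brightest on average stood for it and is called the main probe set below, and the others are described beside it.

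The livers of 24 male BALB/c mice were profiled, each on its own Affymetrix array. The control group ate AIN93G, a purified diet, and the other groups ate AIN93G with 0.1%, 0.5% or 1.0% quercetin, a plant flavonol, for 14 days, with 6 mice in each of the 4 groups. The mice were bought at 6 weeks of age and had spent a week on a nonpurified diet first. They were housed 3 to a cage, and since it was not known here which mice shared one, cage and diet cannot be told apart.

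Superoxide is a by-product of respiration and of several oxidases, and superoxide dismutases turn it into hydrogen peroxide and oxygen. Catalase, an enzyme of the peroxisome, splits hydrogen peroxide into water and oxygen. Glutathione peroxidases reduce peroxides with electrons from glutathione, and peroxiredoxins do so mostly with electrons from thioredoxin. Hepatocytes are rich in many of these enzymes. Many genes that supply the electrons are known targets of the transcription factor Nrf2, encoded by Nfe2l2, which binds antioxidant response elements in DNA.

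Values are quantile-normalized log2(intensity + 1), and a difference of 1 on this scale is a 2-fold change except in dim probe sets, where it understates the change. Deposited array medians ran between 4.78 and 7.58. The arrays of replicates 4 and 6 at 0.5% and of replicates 4 and 5 at 1.0% lay apart from the others on the first principal component, so results that rest on them are also given without these 4 arrays. On the second component, replicate 2 at 1.0% lay at -87.69 and all other arrays between -15.92 and 15.8. That array was kept in the fits without the 4 arrays. Of the 9 hepatocyte markers measured, 0 passed in any comparison, and their summed signal lay between 57000 and 61500 in every mouse. In whole liver, fewer cells of a type and less RNA per cell cannot be told apart.

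No enzyme transcript passed an adjusted p of 0.05 (limma, Benjamini-Hochberg over all genes) at any dose. For 0.1% against control 0 of 8 passed, with 0% of all genes. For 0.5% against control 0 of 8 passed, with 0.0165% of all genes, and for 1.0% against control 0 of 8 passed, with 0.022% of all genes. The slope over dose, a straight line in percent quercetin, passed for 0 of 8 transcripts and for 0.0989% of all genes. The test of any difference among the 4 groups passed for 0 of 8 and for 0.181% of all genes.

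Without adjustment, 0, 1 and 0 of the 8 had a p under 0.05 for 0.1%, 0.5% and 1.0% against control, while 5.11%, 7.65% and 8.92% of all genes did. The slope had such a p for 1 of 8 transcripts and for 10.9% of all genes, and the test of any difference for 1 of 8 and 9.49%. The transcript was Sod3 in each case. No transcript had non-overlapping groups at any dose against control, where 0.39%, 0.456% and 0.797% of all genes did at 0.1%, 0.5% and 1.0%. The median difference of the 8 was 0.00128 at 0.1%, -0.0178 at 0.5% and -0.00957 at 1.0%, beside 0.0121, -0.0211 and -0.00991 over all genes. The median size of a difference, without its sign, was 0.0584, 0.12 and 0.0536 for the 8 at 0.1%, 0.5% and 1.0%, beside 0.162, 0.189 and 0.195 for all genes. These sizes were not matched for brightness. The main probe sets other than those of Sod3 and Gpx3 were each brighter than at least 96.9% of probe sets. Their SDs within groups stood at percentiles 0.3 to 13.7 of all genes. The smaller sizes are therefore not read as a result about the enzymes. With 8 transcripts, a count of 1 does not stand apart from the shares of all genes given above.

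**Figure D1:**
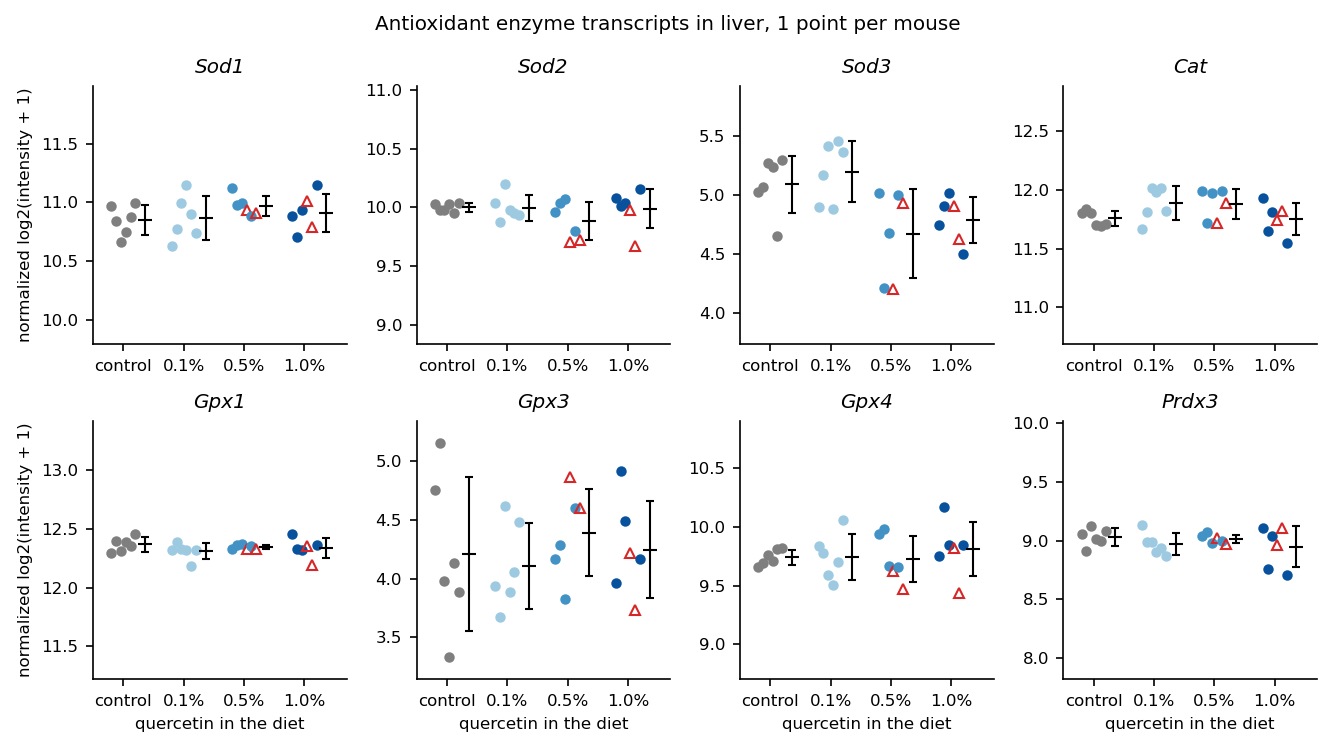
Normalized log2(intensity + 1) of the main probe set of each enzyme transcript in every mouse, by percent quercetin in the diet, with the group mean and SD as bars to the right of the points. Every panel spans the same height in log2 units, and red open triangles mark the 4 arrays apart on the first principal component. The bright transcripts form flat bands. The Sod3 points at 0.5% and 1.0% all lie below the control mean of 5.09 yet overlap the control mice.

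Sod1 encodes the copper and zinc superoxide dismutase of the cytosol. The lowest, median and highest mouse had 10.66, 10.85 and 10.99 on the control diet, 10.63, 10.83 and 11.15 at 0.1%, 10.88, 10.96 and 11.12 at 0.5%, and 10.70, 10.90 and 11.15 at 1.0%. The groups overlapped, and all 6 mice at 0.5% lay above the control mean. Against control, Sod1 differed by 0.02 at 0.1%, by 0.12 at 0.5% and by 0.07 at 1.0% (SE 0.0979 each; limma adjusted p = 0.997, 0.791 and 0.896). At 1.0% the 95% interval of the difference ran between -9.05% and 20.5% of the control level. Sod1 had 4 further probe sets. The next brightest, with group means between 9.90 and 10.04, had a slope of 0.06 (95% interval -0.13 to 0.24), against 0.07 for the main one. Of the 3 dim probe sets of Sod1, one with group means between 3.93 and 4.54 differed by 0.35 at 0.1% against control (unadjusted p = 0.0484, adjusted p = 0.919) and by -0.61 at 0.5% against 0.1% (SE 0.165, unadjusted p = 0.00125, adjusted p = 0.197 over all probe sets with limma), and neither difference passed. Another, with group means between 3.64 and 4.09, differed by -0.46 at 0.1% against control (unadjusted p = 0.0786, limma adjusted p = 0.96) and had a slope of 0.03. The dimmest, with group means between 1.43 and 1.83, had a slope of 0.28 (interval -0.49 to 1.05). The next brightest probe set differed by 0.14 at 0.5% against 0.1% (unadjusted p = 0.151) and the main one by 0.11.

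Sod2 encodes the manganese superoxide dismutase of the mitochondrial matrix. Its lowest, median and highest values were 9.95, 10 and 10.04 on the control diet, 9.88, 9.96 and 10.20 at 0.1%, 9.71, 9.88 and 10.07 at 0.5%, and 9.67, 10.02 and 10.16 at 1.0%. The control mice lay close together and inside the range of each quercetin group. The SD was 0.112, 0.159 and 0.168 at the rising doses, beside 0.037 in control, and the difference in spread was not tested. Sod2 differed from control by 0.00, -0.12 and -0.01 at 0.1%, 0.5% and 1.0% (SE 0.0908; limma adjusted p = 1, 0.786 and 0.987). The interval at 1.0% was -13% to 13% of control. The 0.5% value turned to 0.11 without normalization and to 0.02 with median-centred arrays. The slopes of its 3 other probe sets, 0.15, -0.08 and 0.00, had intervals that all included 0.

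Sod3 encodes the secreted, extracellular superoxide dismutase. Its main probe set was dim, with deposited intensities between 17.6 and 46.8. The lowest, median and highest mouse had 4.65, 5.16 and 5.30 on the control diet, 4.88, 5.27 and 5.46 at 0.1%, 4.20, 4.80 and 5.02 at 0.5%, and 4.50, 4.83 and 5.02 at 1.0%. Every mouse at 0.5% and at 1.0% lay below the control mean, and every one of them also lay below the 0.1% mean, but the ranges overlapped with control through control replicate 5, the lowest control mouse. Group means were 5.09 ± 0.245, 5.20 ± 0.26, 4.67 ± 0.383 and 4.79 ± 0.197 in the same order (SD, n = 6).

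The Sod3 difference was -0.42 at 0.5% against control (SE 0.164, 95% interval -0.76 to -0.08, unadjusted p = 0.0181, adjusted p = 0.563). At 1.0% against control it was -0.30 (interval -0.64 to 0.04, unadjusted p = 0.0779, adjusted p = 0.625), and at 0.1% it was 0.11 (adjusted p = 0.997). Its slope was -0.41 per 1% quercetin (SE 0.159, unadjusted p = 0.0157, adjusted p = 0.322). Sod3 at 1.0% differed from 0.5% by 0.12 (interval -0.23 to 0.46), so the values at these doses were not told apart. All these p-values are from limma, and the smallest adjusted p of any enzyme transcript under any processing tried was 0.0992, for Sod3 at 0.5% against 0.1%.

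Doses were also set against each other. For 0.5% against 0.1%, 0 of 8 transcripts passed, with 0.214% of all genes; for 1.0% against 0.1%, 0 of 8, with 0.253%; and for 1.0% against 0.5%, 0 of 8, with 0.022%. Sod3 differed by -0.53 at 0.5% against 0.1% (SE 0.164, unadjusted p = 0.00407, limma adjusted p = 0.242) and by -0.41 at 1.0% against 0.1% (unadjusted p = 0.0202, adjusted p = 0.413). It was the 1 of 8 with an unadjusted p under 0.05 in each of these, where 10.1% and 9.42% of all genes had one, and 0 of 8 had one for 1.0% against 0.5%, with 6.19% of all genes. No transcript had non-overlapping groups between doses, where 1.24%, 1.06% and 0.286% of all genes did in the same order. The comparisons with 0.1% share the 0.1% mice, those with control share the control mice, and each dose recurs in several comparisons.

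The Sod3 values moved with some choices. Without the 4 arrays the slope was -0.41 (unadjusted p = 0.0251) and the difference at 0.5% against control was -0.36 (unadjusted p = 0.0585). Without normalization that difference at 0.5% was -0.25 (unadjusted p = 0.26), and the slope was -0.38 (limma unadjusted p = 0.0627). With the mean of both Sod3 probe sets the slope was -0.28 (limma unadjusted p = 0.228). Its other probe set was dimmer, with group means between 3.24 and 3.55 and SDs between 0.651 and 1.003, and its slope of -0.16 had an interval of -1.03 to 0.72. That interval includes both 0 and the slope of the main probe set.

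Sod3 is an enzyme that fibroblasts and vascular smooth muscle also make, so markers of other liver cells are given beside it. At 0.5% against control, 9 of 10 stellate and fibroblast markers lay lower (median -0.159), as did 8 of 10 Kupffer cell markers (median -0.104) and 6 of 8 sinusoidal endothelial markers (median -0.0937), while 5 of 8 neutrophil markers lay higher (median 0.308) and 5 cholangiocyte markers had a median of -0.0206. None of them passed. Over all genes the median was -0.0211, and the share of all genes that lay lower was not counted. Of the 2 endothelial markers that lay higher, Lyve1 differed by 0.85 (SE 0.321) and Pecam1 by 0.30 (SE 0.214). At 0.5% against 0.1%, 9 of 10 stellate markers (median -0.235), 8 of 10 Kupffer markers (median -0.182) and 6 of 8 endothelial markers (median -0.106) lay lower. The median over all genes in that comparison was -0.031. The summed stellate signal was between 826 and 1150 at 0.5% (median 1020), against 1020 to 1450 in control mice (median 1090). Among the stellate markers at 0.5% against control, Dcn differed by -0.26 (SE 0.0962), Ecm1 by -0.28 (SE 0.0867) and Reln by -0.07 (SE 0.126). Des differed by -0.89 (SE 0.486), Hgf by -0.36 (SE 0.25), Col1a1 by -0.20 (SE 0.367) and Lrat by -0.12 (SE 0.263). Col3a1 differed by -0.04 (SE 0.262), Pdgfrb by -0.01 (SE 0.219) and Col1a2, which lay higher, by 0.08 (SE 0.228). At 1.0% against control, 8 of 10 stellate (median -0.074), 7 of 10 Kupffer (median -0.0549) and 6 of 8 endothelial markers (median -0.0514) lay lower. The median over all genes there was -0.00991, and the stellate sum was between 911 and 1470 (median 1090). At 1.0% against control, 8 of 8 neutrophil markers lay higher (median 0.574), as did 3 of 5 cholangiocyte markers (median 0.0847). At 0.1% against control, 8 of 8 neutrophil markers lay higher (median 0.341). The neutrophil and cholangiocyte markers were dim, with means between 1.03 and 4.66 and between 1.27 and 3.45. The part of these cell types in the Sod3 values was not tested.

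**Figure D2:**
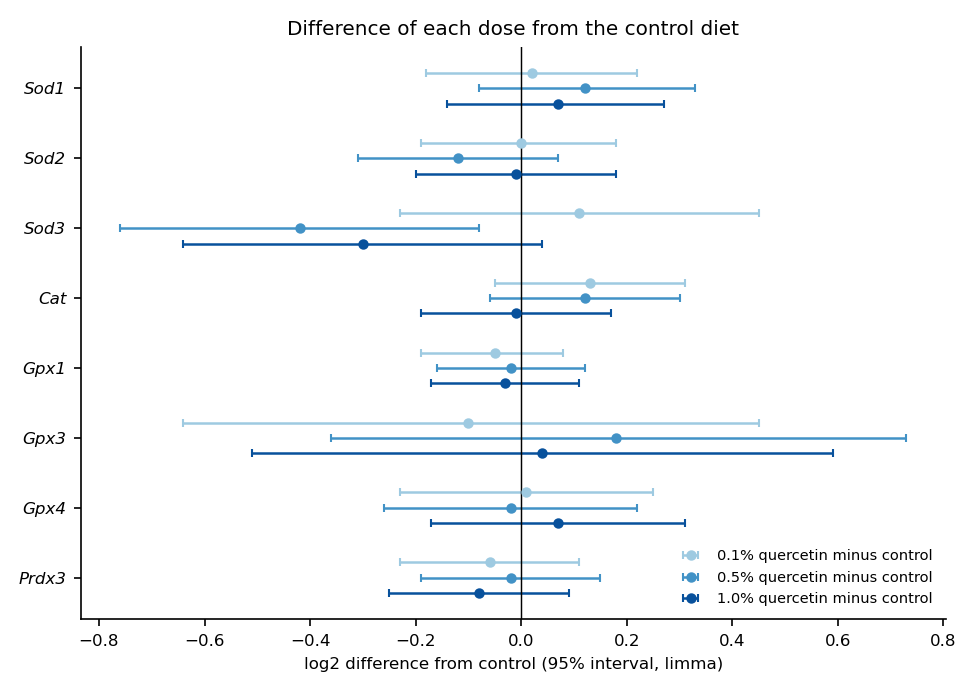
Log2 difference from control of each enzyme transcript at 0.1%, 0.5% and 1.0% quercetin, with its 95% interval from limma over 24 arrays. Of the 24 intervals, that of Sod3 at 0.5%, -0.76 to -0.08, excludes 0, while those of Gpx1 are the narrowest and those of Gpx3 the widest.

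Cat encodes catalase. Its values were 11.69, 11.75 and 11.84 for the lowest, median and highest control mouse, 11.67, 11.90 and 12.02 at 0.1%, 11.72, 11.93 and 11.99 at 0.5%, and 11.55, 11.77 and 11.93 at 1.0%. At 0.1% 5 of 6 mice and at 0.5% 4 of 6 mice lay above the control mean, at 1.0% 3 of 6 did, and all ranges overlapped. Cat differed from control by 0.13 at 0.1% (SE 0.0868, unadjusted p = 0.141), by 0.12 at 0.5% (unadjusted p = 0.17) and by -0.01 at 1.0% (unadjusted p = 0.933), with limma adjusted p = 0.997, 0.761 and 0.991. At 1.0% the interval was -12.2% to 12.7% of control. With the trend and robust options of eBayes, Cat had a limma unadjusted p of 0.0452 at 0.1% against control. Under the same options its limma unadjusted p was 0.0351 at 1.0% against 0.1%, where the main fit gave -0.14 with unadjusted p = 0.121. Neither passed, and the shares of all genes under these options are not given here. The second Cat probe set had group means of 11.64, 11.73, 11.82 and 11.71 in rising dose order and a slope of 0.05, where the main probe set had -0.05, and both intervals included 0.

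Gpx1 encodes the main cytosolic glutathione peroxidase, a selenoprotein. It had the tightest values of the 8 transcripts. The lowest, median and highest mouse had 12.29, 12.37 and 12.46 in control, 12.18, 12.32 and 12.39 at 0.1%, 12.33, 12.34 and 12.37 at 0.5%, and 12.19, 12.34 and 12.46 at 1.0%. The ranges overlapped, and 5 of 6 mice at each dose lay below the control mean. Differences from control were -0.05, -0.02 and -0.03 at the rising doses (SE 0.0663; limma adjusted p = 0.997, 0.97 and 0.935). At 1.0% the interval was -11% to 7.73% of control. The SD within groups, 0.064, was lower than the 0.084 median of 57 genes of like brightness, meaning within 0.5 of its mean.

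Gpx4 encodes the phospholipid hydroperoxide glutathione peroxidase, a selenoprotein that reduces lipid peroxides in membranes. Its values were 9.66, 9.74 and 9.82 in control, 9.51, 9.74 and 10.06 at 0.1%, 9.47, 9.67 and 9.98 at 0.5%, and 9.44, 9.83 and 10.17 at 1.0%, each as lowest, median and highest. The groups overlapped, and the control mice lay inside each quercetin range. Differences from control were 0.01, -0.02 and 0.07 (SE 0.116; limma adjusted p = 1, 0.983 and 0.907), with an interval of -11.1% to 24.1% of control at 1.0%. Without replicate 2 at 1.0%, the highest mouse, the Gpx4 difference at 1.0% was 0.00 and the slope -0.01, where all mice gave 0.07 and 0.06. Without replicate 5 at 1.0%, the lowest mouse, they were 0.15 and 0.13. Without the 4 arrays apart on the first principal component, both were 0.16. The second probe set had group means of 9.22, 9.32, 9.38 and 9.36 in rising dose order and a slope of 0.12 (interval -0.2 to 0.43).

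Gpx3 encodes the secreted plasma glutathione peroxidase, which in mice is made mainly in the kidney. Its single probe set was dim, with deposited intensities between 8.60 and 32.4. The lowest, median and highest values were 3.33, 4.06 and 5.16 in control, 3.67, 4.00 and 4.62 at 0.1%, 3.83, 4.45 and 4.87 at 0.5%, and 3.73, 4.20 and 4.92 at 1.0%. Both the lowest and the highest of the 24 mice were controls. Differences from control were -0.10, 0.18 and 0.04 (SE 0.264; limma adjusted p = 0.997, 0.9 and 0.983), and the interval at 1.0%, -29.6% to 50.4% of control, was wide. The 6 kidney tubule markers were near the floor, with a summed signal between 17.5 and 45.2 over all mice.

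Prdx3 encodes the mitochondrial peroxiredoxin that takes electrons from mitochondrial thioredoxin. Its values were 8.91, 9.04 and 9.12 in control, 8.87, 8.97 and 9.13 at 0.1%, 8.97, 9.01 and 9.07 at 0.5%, and 8.71, 9 and 9.11 at 1.0%. The ranges overlapped, and the lowest mice were at 1.0%. Differences from control were -0.06, -0.02 and -0.08 (SE 0.0814; limma adjusted p = 0.997, 0.973 and 0.822), with an interval of -16% to 6.11% of control at 1.0%. The SD within groups was 0.107, beside a median of 0.144 over 495 genes of like brightness. The spread of Gpx4, 0.184, was above the 0.139 median of 358 genes of like brightness, and that of Sod1, 0.146, above the 0.115 median of 173.

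**Figure D3:**
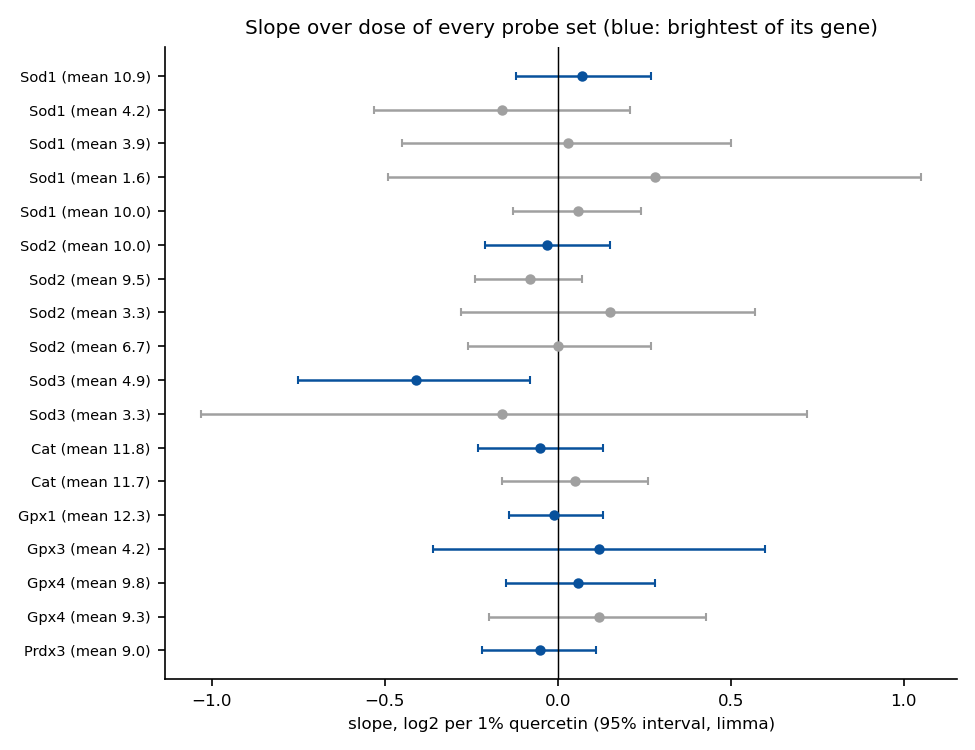
Slope over dose with its 95% interval for all 18 probe sets of the 8 measured genes, fitted over all probe sets with limma, with the mean log2 level of each probe set beside its gene symbol. The main Sod3 probe set, at -0.41, has an interval that excludes 0. The dim probe sets have the widest intervals.

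The bright transcripts shifted together with the normalization used. Without normalization, the difference at 0.5% against control was 0.32 for Sod1, 0.30 for Cat, 0.22 for Prdx3 and 0.22 for Gpx4, and none passed. With arrays centred on their medians, 1.0% against 0.5% gave -0.29 for Prdx3 and -0.28 for Cat, where quantile normalization gave -0.06 and -0.13. The centred values had unadjusted p = 0.0382 and 0.0153, so that 2 of 8 transcripts, in place of 0 of 8, had a p under 0.05 in that comparison, and their limma adjusted p were 0.433 and 0.376. The flat bands and their intervals therefore hold on the quantile-normalized scale.

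Whether the 8 transcripts vary together among mice of one diet was read from pairs on the normalized scale. Of the 28 pairs, 0 had a correlation that passed an adjusted p of 0.05 (values centred on the group mean, permutation within groups with 100000 resamples, 24 mice). The highest was Sod3 with Cat (Pearson r = 0.542, permutation p = 0.0132, adjusted p = 0.37; Spearman rho = 0.518, permutation p = 0.0221, adjusted p = 0.213; r = 0.405 without the 2 mice farthest from the median). The lowest was Cat with Gpx4 (r = -0.436, permutation p = 0.0738, adjusted p = 0.413; rho = -0.506, permutation p = 0.0299, adjusted p = 0.213; r = -0.457 without 2 mice). On the values as deposited, 18 of the 28 pairs passed, and all of them share the brightness of the array as a common term.

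**Figure D4:**
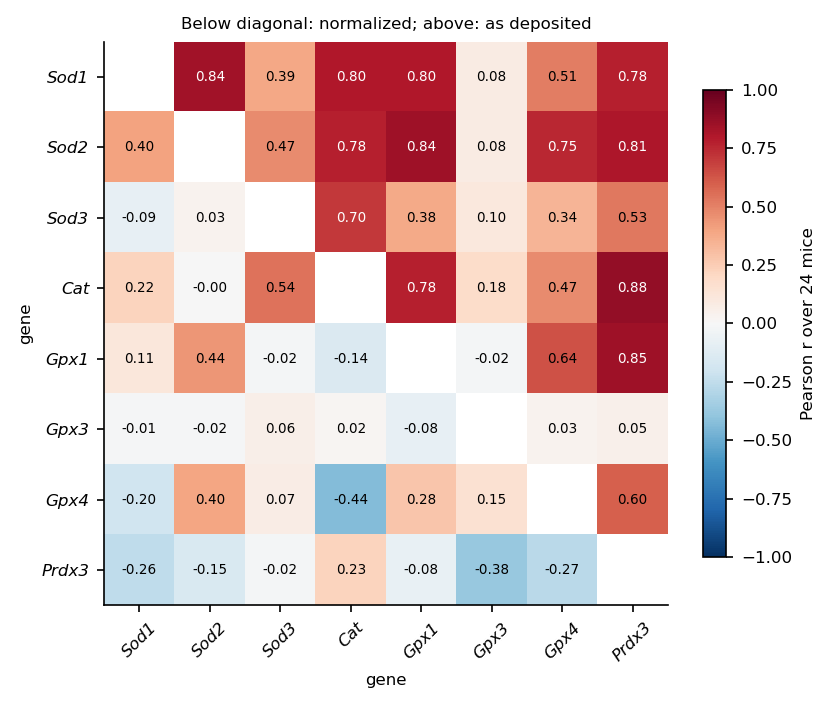
Pearson r between the enzyme transcripts over 24 mice, after centring on the diet group mean. Below the diagonal, on normalized values, r lies between -0.436 and 0.542. Above it, on the deposited values, most pairs of bright transcripts are high, such as 0.848 for Gpx1 with Prdx3.

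The transcripts most like each enzyme over the 24 mice, among 4363 genes with a mean of at least 6 and after centring on the group mean, are given as a description. For Gpx4 they were Stk16 (r = 0.858), BC003965 (0.844) and Rras (0.844), and for Sod2 Rnf187 (0.833), Nqo2 (0.833) and Btbd1 (0.821). For Prdx3 they were Ywhae (0.79), Ctdnep1 (0.733) and Spr (0.726), for Cat Pgrmc1 (0.778), Cnot6 (0.735) and Slc25a16 (0.73), and for Sod1 Proz (0.776), Hint1 (0.775) and Ttc32 (0.775). For Gpx1 they were Cox6a1 (0.735), Faf1 (0.678) and Avpi1 (0.667), for Sod3 Dusp11 (0.683), Gpbp1 (0.651) and Ppp1r15b (0.625), and for Gpx3 Myg1 (0.642), Lum (0.621) and Nubp2 (0.618). All 24 arrays entered, also those apart on the first or second principal component. No r is given without them, so shifts of whole arrays can enter these values.

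Other genes of the pathway were read from 6 lists with 83 genes, of which 77 were measured. None of the 77 passed in any comparison. Without adjustment 12 had a p under 0.05 for the slope, 15.6% beside 10.9% of all genes, and the shares were 2.6%, 13% and 15.6% for 0.1%, 0.5% and 1.0% against control, beside 5.11%, 7.65% and 8.92% of all genes. Without the 4 arrays, the counts at 0.5% and 1.0% against control were 5 and 6 of 77, or 6.49% and 7.79%, beside 5.13% and 8.11% of all genes, where the full set of arrays gave 10 and 12. Without normalization, 2 of 77 had such a p at 1.0% against control, 2.6% beside 6.05% of all genes, and 6 of 77 for the slope, 7.79% beside 6.73%. For the slope without the 4 arrays 11 of 77 had one, 14.3% beside 8.42%, and at 0.5% against control without normalization 10 of 77, 13% beside 7.78%.

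The electron donors to the peroxidases held 22 measured genes, 6 of which had an unadjusted p under 0.05 for the slope, beside 10.9% of all genes. Of the 6, 4 had a positive slope, with Gss and Srxn1 named here, and 2 a negative one. This count is not given for the list alone under other processing. Srxn1 encodes sulfiredoxin, which restores overoxidized peroxiredoxins, and had the steepest slope of all 77 genes. Its lowest, median and highest values were 5.64, 5.87 and 6.07 in control, 5.36, 6.00 and 6.16 at 0.1%, 5.65, 6.01 and 8.45 at 0.5%, and 5.91, 6.84 and 9.24 at 1.0%. High values stood in 2 mice at 0.5%, at 7.96 and 8.45, and in 3 mice at 1.0%, at 7.29, 8.60 and 9.24, and the other mice of those groups lay between 5.65 and 6.39, mostly inside the control range. All 5 mice carry the replicate numbers 4, 5 or 6, as do the 4 arrays apart on the first principal component. Whether those numbers mark a cage was not known here. The slope was 1.41 (SE 0.454, unadjusted p = 0.00477, limma adjusted p = 0.217). Of those 5 mice, 4 are the arrays apart on the first principal component, and without these the slope was 0.45 (unadjusted p = 0.0353, adjusted p = 0.546).

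Glutathione synthetase, Gss, which makes glutathione, had values up to 7.21 at 1.0%, against 6.77 at most in control, and group means of 6.60, 6.60, 6.78 and 6.89 in rising dose order. Its slope was 0.31 (SE 0.0892, limma adjusted p = 0.166), and 0.20 without the 4 arrays. A pair of enzymes that make NADPH had negative slopes: Pgd, of the pentose phosphate pathway, with -0.63 (SE 0.186, adjusted p = 0.168), and Me1, malic enzyme, with -0.49 (SE 0.175, adjusted p = 0.282). Pgd averaged 6.79 ± 0.16 at 1.0%, against 7.21 ± 0.26 in control (SD, n = 6), and the groups overlapped.

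Of the 13 measured peroxidases and dismutase partners outside the 10 genes, 0 had an unadjusted p under 0.05 for the slope, and the 4 smallest p belonged to Park7 (-0.10), Mpo (0.40), Gpx7 (0.29) and Gpx5 (-0.48). Without the 4 arrays these slopes were -0.04, 0.52, 0.43 and -0.25 in the same order. Mpo, Gpx7 and Gpx5 were dim, with means of 2.74, 2.84 and 2.38 and slope SEs of 0.322, 0.275 and 0.481. Among 15 oxidases that make hydrogen peroxide, 2 had an unadjusted p under 0.05 for the slope, beside 10.9% of all genes. Aldehyde oxidase Aox1 had 0.27 (SE 0.0796, limma adjusted p = 0.168), and 0.33 without the 4 arrays. Monoamine oxidase Maob had -0.22 (unadjusted p = 0.0313, limma adjusted p = 0.402), which was -0.06 (unadjusted p = 0.431) without the 4 arrays. Pipox had -0.15 and Smox 0.51, and without the 4 arrays they had -0.10 and 0.12. Of 8 genes for protein import into peroxisomes, where catalase works, Pex26 had 0.72 (adjusted p = 0.212) and Pex5, the import receptor, -0.31 (adjusted p = 0.237). The Pex26 slope was 0.43 without the 4 arrays. Pex6 had 0.14 and Pex14 -0.10.

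Of 9 regulators, Foxo1 had a slope of 0.34 (SE 0.113, limma adjusted p = 0.241) and Nfe2l2 of -0.42 (SE 0.169, adjusted p = 0.349; -0.20 without the 4 arrays). Nfe2l2 averaged 7.50 ± 0.33 at 1.0%, against 7.90 ± 0.13 in control (SD, n = 6), with values between 7.07 and 7.97 at 1.0% and between 7.79 and 8.11 in control. Sirt1 had 0.33 and Foxo3 0.35, and without the 4 arrays they had 0.17 and 0.54. Of the 10 genes for selenoprotein synthesis, which the glutathione peroxidases need, 0 had an unadjusted p under 0.05 for the slope, and the 4 smallest p belonged to Scly (0.23), Sepsecs (-0.20), Pstk (-0.25) and Sephs1 (0.14). Without the 4 arrays these slopes were 0.21, -0.05, -0.03 and 0.14 in the same order.

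**Figure D5:**
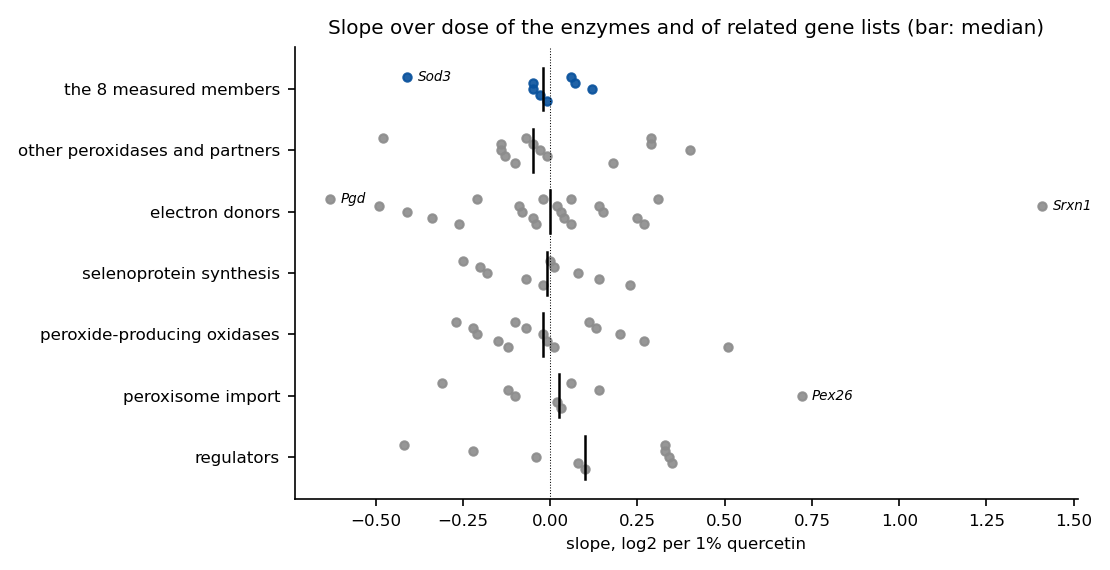
Slope over dose, in log2 units per 1% quercetin, of the 8 enzyme transcripts and of 77 genes in 6 related lists, with 1 point per gene and a bar at each median. Srxn1 stands apart at 1.41, a value that was 0.45 without the 4 arrays. Sod3 is the enzyme farthest from 0, at -0.41.

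A promoter entry was found for 8 of the 10 enzyme genes in the RefSeq promoter table of build GRCm38.p6. The window runs over 250 bases before and 50 after the gene's start, and the antioxidant response element core TGACNNNGC was searched on both strands. It was found in 1 of the 8 genes, Sod1, beside 14% of 27025 genes in the table, or 12.4% of 32851 windows. Of the 20 electron donor genes with an entry, 7 held it: Txnrd1, Gclm, Srxn1, Sesn2, G6pdx, Pgd and Me1. Of these, Srxn1 had a positive slope and Pgd and Me1 negative ones, as given above. They are the ones that were named above for their small slope p. Slopes of the others are not given, so no direction is read for the 7 together. Below is the Sod1 sequence before its start, chr16:90220512-90220761 on the plus strand, shown because it holds the only match among the enzymes. Capitals mark the match, which lies on the reverse strand.
Sod1: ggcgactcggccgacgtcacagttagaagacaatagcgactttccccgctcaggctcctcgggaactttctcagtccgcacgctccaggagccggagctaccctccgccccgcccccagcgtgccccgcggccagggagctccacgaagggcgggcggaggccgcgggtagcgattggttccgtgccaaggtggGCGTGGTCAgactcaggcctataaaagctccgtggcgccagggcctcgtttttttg
A match in these letters is a description of the sequence and not of a bound site, and the flat Sod1 values above stand beside it without a test that joins them.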

How the data were processed

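Per the labels' protocols, biotin-labelled cRNA was prepared from each liver and run on Affymetrix arrays. The authors deposited a linear intensity for each of 45101 probe sets. How they corrected background, summarised probes or scaled arrays was not given in the sources used here. Because medians differed between arrays, log2(intensity + 1) was quantile-normalized. Gene symbols came from the platform annotation: 34945 probe sets with 1 symbol were used and 932 with several were left out. The brightest probe set on average stood for each of 18193 genes. All 24 arrays entered limma 3.58.1 (R 4.3.3) with eBayes, two-sided, Benjamini-Hochberg over all genes at 0.05. No 2 arrays held identical values. Nothing in the labels ties equal replicate numbers together. The fits were tested on simulated data.

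The genes, lists and tests were chosen with earlier results of these data known, so they are not independent support for any pattern. All 10 enzyme genes were named with every probe set, with 3 genes most like each, and from each list at most 4 genes by the smallest slope p. Genes of other cell types were read as markers: hepatocyte, erythroid, Kupffer, endothelial, stellate, cholangiocyte, neutrophil, kidney, pancreas and adipocyte. Of 71 markers measured, 0 passed in any comparison. Alternatives were normalization, pseudocount 16, a filter on dim genes, the choice of probe set, eBayes options, array weights, fits with 2 groups, blocks, and arrays left out. List counts without normalization, with median-centred arrays and without the 4 arrays were added after the data were seen.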

Additional observations from a re-analysis of the deposited data

Results flagged for a closer look

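Gpx1 at 0.1% quercetin in replicate 5 had 12.18, where the next lowest mouse of that group had 12.32 and the highest 12.39. The gap was 0.678 of the group's range, above Dixon's 95% critical value of 0.625 for 6 values. It was 1 of 32 groups examined, and chance alone marks about 1 in 20. Without this mouse the Gpx1 difference at 0.1% against control was -0.03, where all mice gave -0.05.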

How the results depend on the processing

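No enzyme transcript passed in any comparison under the 13 alternatives or with any of the 24 arrays left out: 0 of 2064 recomputed values passed, and 40 moved by more than the SD within groups, all under normalization or probe set choices (14 without normalization, 15 with median centring, 10 with the most variable probe set, 1 with the mean of probe sets). The counts of all genes past the threshold varied more: 0 to 7 at 0.5% against control (3 in the report), 0 to 7 at 1.0% against control (4), 4 to 100 at 0.5% against 0.1% (39), 6 to 124 at 1.0% against 0.1% (46), 0 to 129 for the slope (18) and 4 to 104 for any difference (33). With arrays left out they were 0 to 6, 4 to 7, 4 to 59, 18 to 62, 4 to 61 and 17 to 49 in the same order, and 0 to 8 at 1.0% against 0.5% (4). Leaving out 1 array gave Sod3 differences between -0.51 and -0.32 at 0.5% against control and slopes between -0.48 and -0.38, with the cause of the spread not tested.

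Without normalization 9 correlations turned to positive and passed: Sod1 with Gpx4 (0.51) and Prdx3 (0.78), Sod2 with Cat (0.778) and Prdx3 (0.806), Sod3 with Prdx3 (0.527), Cat with Gpx1 (0.779) and Gpx4 (0.469), and Prdx3 with Gpx1 (0.848) and Gpx4 (0.601).

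Equal replicate numbers gave no pairing: the median correlation of same-numbered deviations was 0.00392, beside 0.000177 for other numbers, and 4 of 24 arrays correlated best with an array of their own number. With the replicate number as a block, 0 of 8 transcripts passed, and the Sod3 slope was -0.41 (unadjusted p = 0.0245, limma adjusted p = 0.378).

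Precision is limited by 6 mice a group, and for Sod3 and Gpx3 by dim signal.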
